A study of Drosophila melanogaster with 2 samples.

Results

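Weak promoter peaks of the CG10147-GFP ChIP-seq were the summits of the pooled peak list that lay within 500 bp of a protein-coding transcription start site (TSS) and had no summit of the stricter peak list within 500 bp. They were selected on measured values. The stricter list was thresholded by the irreproducible discovery rate (IDR), a measure of agreement between replicates, and held the 4576 pooled peaks with the highest signal, so that every weak peak had a signal below it. The rule found 5279 weak promoter peaks among the 30000 pooled peaks (17.6%). They made up 21.7% of the 24286 pooled peaks away from IDR summits and 64.4% of the 8203 pooled summits at promoters. They were set against the 2306 IDR summits within 500 bp of a protein-coding TSS, here called IDR promoter peaks, and the 19007 weak pooled peaks farther from a TSS, here called other weak peaks.

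DNA bound by the tagged protein was mapped by chromatin immunoprecipitation and sequencing in whole Drosophila melanogaster embryos aged 0 to 24 hours, with males and females pooled. All embryos came from a transgenic line with GFP joined to the C-terminal end of CG10147, the chromatin was sonicated to 200 to 800 bp, and the precipitation used an anti-GFP antibody. The 2 libraries are biological replicates 2 and 3 of this 1 group, and the control was not analysed here. Tissues and stages were mixed, so that no peak can be given to a cell type or a time within the window.

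A promoter is the sequence around a TSS on which RNA polymerase II and its general factors assemble. In flies, promoters of broadly used genes often carry the DNA replication-related element (DRE), the site of Dref, or Motif 1, the site of M1BP, and BEAF-32 binds clusters of a short sequence that also lies inside the DRE. Promoters of genes with restricted expression more often carry a TATA box, and GAGA factor (Trl) binds GA repeats at promoters with paused polymerase.

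DRE and Motif 1 were the fixed motifs with the lowest adjusted p in weak promoter peaks against their own flanks, and for each of them 3 of the strongest weak promoter peaks that held it are printed below as 61 bases around the match. Each was read 5′ to 3′ on the plus strand of Release 6, which shares its coordinates with dm6, and the capitals mark the match. The first 3 lines hold Motif 1 (GGTCACAC or its reverse complement) and the next 3 hold the DRE (TATCGATA). The last 3 hold an initiator core (TCAGT) at trn, a run of CA repeats (CACACACA) at nsl1 and a GAGA motif (GAGAG) at CG10512, 3 of the 4 motifs that were more frequent in weak than in IDR promoter peaks.
Cdk12: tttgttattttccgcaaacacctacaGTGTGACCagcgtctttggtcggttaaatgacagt
Grip91: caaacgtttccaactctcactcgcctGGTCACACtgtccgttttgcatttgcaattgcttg
CG6845: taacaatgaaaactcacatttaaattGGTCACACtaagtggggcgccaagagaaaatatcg
vers: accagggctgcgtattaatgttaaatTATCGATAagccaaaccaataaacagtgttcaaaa
Lnk: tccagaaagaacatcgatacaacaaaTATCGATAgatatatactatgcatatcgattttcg
ergic53: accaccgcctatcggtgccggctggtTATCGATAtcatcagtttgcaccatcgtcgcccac
trn: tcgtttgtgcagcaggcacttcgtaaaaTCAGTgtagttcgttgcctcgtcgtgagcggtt
nsl1: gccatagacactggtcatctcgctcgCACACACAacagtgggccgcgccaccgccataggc
CG10512: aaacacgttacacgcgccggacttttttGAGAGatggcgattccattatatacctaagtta

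The Cdk12 stretch lay at chr3L:21517083-21517143, 947 bp from the nearest IDR summit to its peak, and the gene encodes a kinase of elongating RNA polymerase II. The peak had a pooled signal of 143.9, and its summit lay 111 bp upstream of the TSS. The Grip91 stretch, at chrX:13744910-13744970, belonged to a summit 189 bp upstream of a gene for a subunit of the γ-tubulin ring complex, with a signal of 142.0. The CG6845 stretch, at chr3L:146376-146436, belonged to a summit 97 bp upstream of the TSS with a signal of 141.1.

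The vers stretch, at chr3L:12116006-12116066, belonged to a summit 43 bp upstream of the TSS with a signal of 144.6. The Lnk stretch, at chr3R:25888494-25888554, belonged to a summit 1 bp downstream of the TSS of a gene for an adaptor of insulin signalling, with a signal of 143.7. The ergic53 stretch, at chr3L:8534913-8534973, belonged to a summit 38 bp downstream of the TSS of a gene for a cargo lectin of the secretory pathway, with a signal of 143.4. All 6 were chosen for their high signal. The remaining stretches lay at chr3L:13114243-13114303 (trn, which encodes a leucine-rich repeat protein of the cell surface), chr3R:15793643-15793703 (nsl1, a subunit of the NSL histone acetyltransferase complex) and chr3L:21205270-21205330 (CG10512).

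Signal values are the authors' own and come from their peak caller, on a scale that no source used here defines. They rank and describe peaks within a list. Depth cannot be had from these lists, and the number of reads behind a peak is unknown. Weak promoter peaks had a median pooled signal of 66.3, a lower quartile of 46.2, an upper quartile of 96.3 and a range of 31.9 to 144.6. IDR promoter peaks had a median of 238.1 and a range of 144.7 to 3338, and other weak peaks had a median of 50.5. These differences follow from how the peaks were chosen. A q-value of at most 0.05 was listed for 2669 weak promoter peaks (50.6%), for all 2306 IDR promoter peaks and for 29.2% of other weak peaks. At the highest −log10 q of the pooled list, 4.13, stood 807 weak promoter peaks (15.3%).

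The values on both sides of the threshold were close. The strongest weak promoter peak lay between CG8500 and MtnA, a metallothionein gene, at rank 4578 of the pooled list with a signal of 144.6, and had 68.0 in the replicate 2 list and 89.2 in the replicate 3 list. It was followed by peaks at vers, Syngr (a synaptic vesicle protein), CG9205, CG17230, trn, Rhau (an RNA helicase), Spt6 (a chaperone of histones in elongation), CG10512, LamC (a nuclear lamin), gem and Cdk12, the last with a signal of 143.9 at rank 4605. The 5 IDR promoter peaks nearest to the threshold lay at Secp43, Dyrk2, mRpL17, Pat1 and Orp8, with signals from 144.7 at rank 4575 to 144.9 at rank 4565. On either side, peaks differed in their replicate lists: Rhau stood at rank 4352 in replicate 2 and 4198 in replicate 3, whereas vers had a summit nearby (within 100 bp) in replicate 2 and none in replicate 3. Among the 5 IDR promoter peaks, Dyrk2 and Pat1 likewise had none in the replicate 3 list.

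The rule also set 2 distances. Just inside the distance to a TSS stood peaks at Cpr65Au, CG9757 and Cyt-c1, each 500 bp away, with signals of 112.7, 58.0 and 55.7. Just outside it, at 501 bp, stood peaks at ATP8A, tai and CG15625 with signals of 78.5, 62.0 and 55.9. The peaks nearest to an IDR summit were those at P5cr-2 and Calx, 501 bp away. Most were much farther: the median gap to the nearest IDR summit was 5065 bp, and 1335 weak promoter peaks (25.3%) had an IDR summit within 2000 bp.

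The replicate 2 list had a summit nearby for 62.2% of weak promoter peaks, and the replicate 3 list for 68.4%. Both lists held 2136 of them (40.5%), only replicate 2 held 1149, only replicate 3 held 1473 and neither held 521 (9.87%). In IDR promoter peaks the share in both lists was 88.2%, and in other weak peaks 29.96%. Both libraries made the pooled list, so these shares describe the lists and were not tested. Between ranks 4577 and 7500 of the pooled list, 73.2% of weak promoter peaks were in both lists, against 78.2% of other weak peaks. Between ranks 25001 and 30000 the shares were 6.67% and 3.20%. Within a range the promoter peaks were the less often in both lists in the 4 upper ranges and the more often in the 2 lower ones, so that their higher share over the whole list went with their higher ranks. Promoters held 39.5% of the weak peaks in the first of these ranges and 12.9% in the last.

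**Figure D1:**
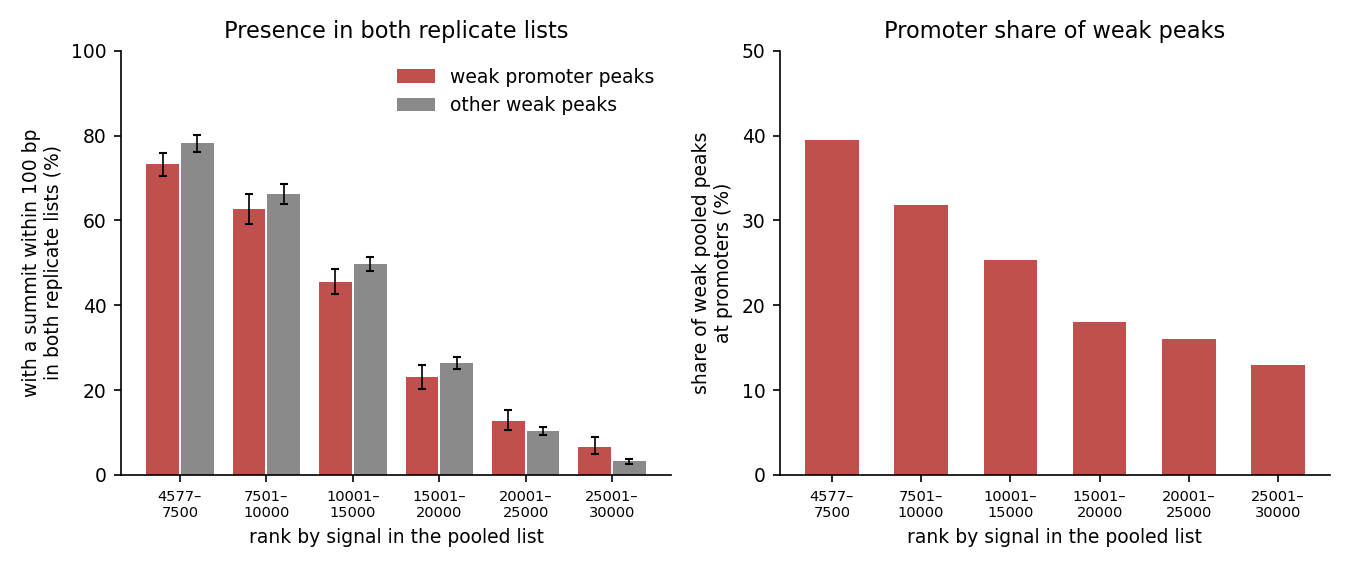
Left, percentage of weak promoter peaks (red) and other weak peaks (grey) whose summit had another within 100 bp in each replicate list, in 6 ranges of rank by signal in the pooled list, with exact 95% binomial intervals that cover counting error only. Right, percentage of the weak pooled peaks in each range that lay at promoters. Presence in both lists fell to 6.67% of weak promoter peaks and 3.20% of other weak peaks in the last range, and the promoter share was 39.5% in the first range and 12.9% in the last.

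Some weak promoter peaks were strong in 1 library. Among the strongest 4576 peaks of each replicate list stood 346 weak promoter peaks in replicate 2 (6.55%) and 191 in replicate 3 (3.62%), and 3 stood there in both. The rule kept only sites outside the 4576 strongest pooled peaks, so few sites strong in both libraries could remain. The low count in both thus follows from how the peaks were chosen. In the replicate 2 list the highest rank was 1506, at CG13124, with a signal of 123.2 there, and this peak stood at rank 16748 in replicate 3 with 35.8. The next were at gem, aus, emc, which encodes a helix-loop-helix inhibitor of proneural factors, and SNF4Agamma, a subunit of AMP-activated kinase. None of those 4 had a summit nearby in replicate 3. At gem 2 weak promoter peaks overlapped, with pooled signals of 143.9 and 124.0, and only the second had a summit nearby in replicate 2.

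In the replicate 3 list the highest rank was 2457, at CG10353, with a signal of 138.0, and replicate 2 held no summit there. MFS15 stood at rank 2489 in replicate 3 and 2195 in replicate 2, and was the only one of these 10 peaks among the strongest 4576 of both. CG6006 and the shared promoter of Nop60B and mRpS17, a pseudouridine synthase and a mitochondrial ribosomal protein, followed without a summit in replicate 2. Got2, a mitochondrial aminotransferase, stood at rank 2614 in replicate 3 and 11964 in replicate 2. Signals of different lists are not on a common scale, so ranks alone were compared.

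Weak promoter peaks lay less often upstream of the TSS, and more often downstream of it, than IDR promoter peaks. Of the summits not exactly at a TSS, 55.6% of weak promoter peaks and 78.0% of IDR promoter peaks lay upstream (odds ratio 0.353, 95% interval 0.316 to 0.396, Fisher's exact test, two-sided, adjusted p = 2.11e-79 over 4 shares). The median position was 21 bp upstream in weak promoter peaks and 105 bp upstream in IDR promoter peaks. Between 200 and 101 bp upstream lay 12.6% of weak promoter peaks and 27.2% of IDR promoter peaks, and between 1 and 50 bp downstream lay 11.4% and 7.94%. Beyond 200 bp downstream lay 15.3% of weak promoter peaks and 3.69% of IDR promoter peaks. The rule set the distance from the TSS and not the side, but it also removed summits within 500 bp of an IDR summit. Most IDR promoter summits lay upstream, so at those promoters the rule left fewer places upstream than downstream. The part of this in the difference and its p was not tested. With IDR distances of 250 and 1000 bp the difference in the upstream share was -22.4 and -20.6 percentage points. These settings kept 5338 and 4690 peaks, beside 5279. Both still removed summits near IDR summits, so they cannot show the part of that removal. A p over peaks describes positions in lists that share both libraries, not variation between embryos.

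**Figure D2:**
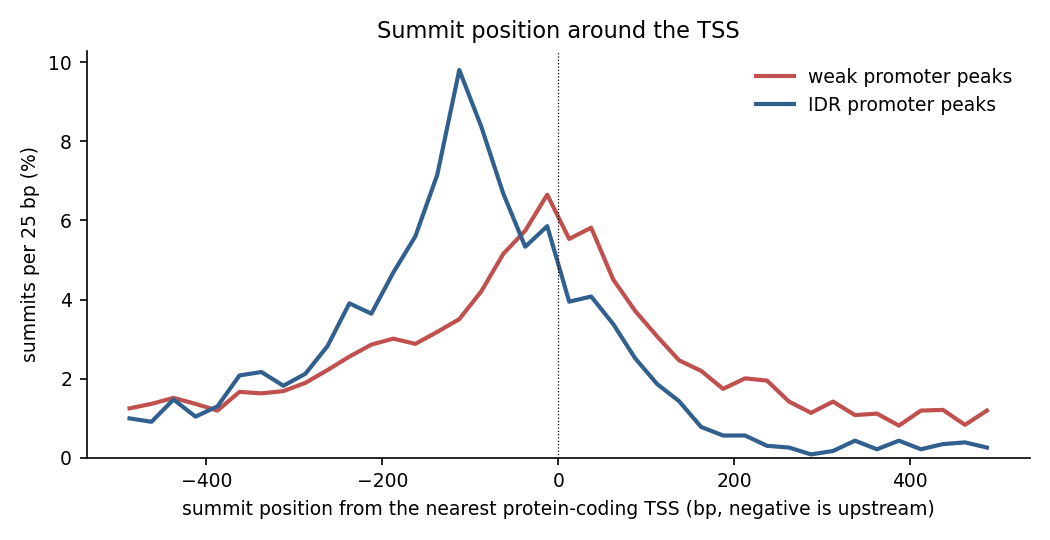
Percentage of weak promoter peaks (red) and IDR promoter peaks (blue) in each 25 bp of distance between the summit and the nearest protein-coding TSS, with negative values upstream. Weak promoter peaks spread on both sides of the TSS with a median of -21 bp, and IDR promoter peaks gather upstream with a median of -105 bp.

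The annotation under the summit differed in the same way. The removal of summits near IDR summits applies to these classes too, and its part in them was not tested. Coding sequence held 6.14% of weak promoter summits and 0.564% of IDR promoter summits (odds ratio 11.5, 95% interval 6.61 to 20.1, Fisher's exact test, adjusted p = 5.73e-36 over 6 classes). A 5′ UTR held 33.3% of weak and 21.0% of IDR promoter summits (adjusted p = 1.32e-27, Fisher's exact test), and 31.1% of weak against 51.6% of IDR promoter summits lay outside genes (adjusted p = 5.66e-63, Fisher's exact test). Introns held 26.3% of weak and 24.0% of IDR promoter summits, which missed the threshold (2.27 percentage points, adjusted p = 0.0592, Fisher's exact test). The intron difference had no stable direction: it passed as 4.77 percentage points with a TSS window of 1000 bp (adjusted p = 9.31e-06, Fisher's exact test) and as -2.72 with 1 peak per gene (adjusted p = 0.0242, Fisher's exact test).

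A smaller share of weak promoter peaks had a divergent promoter at their nearest TSS, whether or not the summit lay between the genes. The nearest TSS had an opposite-strand TSS of another protein-coding gene within 500 bp upstream at 12.9% of weak and 31.3% of IDR promoter peaks (odds ratio 0.325, 95% interval 0.289 to 0.367, Fisher's exact test, adjusted p = 5.81e-75). The rule removed summits within 500 bp of an IDR summit, and so left fewer places at promoters with an IDR peak. A divergent TSS was found at 51.4% of genes with an IDR promoter peak. The share was 26.5% at genes with only weak promoter peaks and 18.9% at genes with no pooled peak. The part of that removal in the difference and its p was not tested. Without divergent promoters, 56.7% of weak and 78.5% of IDR promoter peaks lay upstream. Chromosome X carried 19.6% of weak and 15.7% of IDR promoter peaks (odds ratio 1.31, 95% interval 1.15 to 1.49, adjusted p = 7.58e-05, Fisher's exact test), beside 15.7% of protein-coding genes. That call was lost without divergent promoters, where the difference was 1.77 percentage points (adjusted p = 0.254, Fisher's exact test). Chromosome 4 carried 29 weak and 9 IDR promoter peaks, 0.549% and 0.390% (adjusted p = 0.480, Fisher's exact test). With the replicate 3 list in place of the pooled one the difference on chromosome 4 was 0.591 percentage points and passed the test (adjusted p = 0.00779, Fisher's exact test).

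The base composition of weak promoter peaks was closer to that of their flanks than to that of IDR promoter peaks. The 200 bp around a summit held 41.9% ± 8.56 G and C in weak promoter peaks (SD over 5279 windows) and 35.5% ± 8.0 in IDR promoter peaks (SD over 2306 windows). Other weak peaks held 40.2% ± 8.0 (SD over 19007 windows). Windows 1000 bp upstream of the same weak promoter summits held 42.3% ± 9.69 and windows 1000 bp downstream 43.7% ± 9.95 (SD over 5279 windows each), and 2633 of the weak promoter windows (49.9%) had a lower value than their own upstream window. Weak promoter windows were thus richer in G and C than IDR promoter windows by 6.33 percentage points on average. The motif differences below move with this difference in composition, and its part in them was not tested.

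Against IDR promoter peaks, weak promoter peaks held fewer AT-rich sequences and more repeats of CA and GA. Of 22 fixed motifs, matched on both strands, 4 were more frequent in weak promoter windows (18.2%) and 7 less frequent (31.8%) by Fisher's exact test with adjusted p under 0.05. The TATA box (TATAAA) was found in 23.2% of weak and 37.9% of IDR promoter windows (adjusted p = 1.05e-36, Fisher's exact test), the AT-rich 7-mer AAAATAT in 16.5% and 29.7%, and the homeodomain core (TAATTA) in 11.8% and 18.6%. CA repeats were found in 7.16% of weak and 3.08% of IDR promoter windows (odds ratio 2.43, 95% interval 1.88 to 3.14, adjusted p = 1.16e-12, Fisher's exact test), and GAGAG in 27.2% and 19.4%. TCAGT, the initiator core, was found in 35.7% of weak and 31.3% of IDR promoter windows. That call was lost with the replicate 3 list in place of the pooled one (adjusted p = 0.0956, Fisher's exact test). It was also lost with the TSS window widened to 1000 bp (adjusted p = 0.0962, Fisher's exact test). CTCTTT was found in 15.1% of weak and 12.5% of IDR promoter windows. Its call was lost with the replicate 3 list, in peaks present in both replicate lists, with 1 peak per gene and with windows of 100 or 400 bp (adjusted p from 0.0600 to 0.293, Fisher's exact test). The repeats and AT-rich motifs were not particular to promoters. In other weak peaks CA repeats were found in 5.99% of windows, GAGAG in 22.2%, TATAAA in 26.4%, AAAATAT in 18.1% and TAATTA in 13.3%. These shares lay between those of weak and IDR promoter peaks, whereas TCAGT, at 29.9%, lay below both.

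The DRE was found in 4.72% of weak and 7.72% of IDR promoter windows (odds ratio 0.592, 95% interval 0.485 to 0.722, adjusted p = 1.14e-06, Fisher's exact test). The call was lost among the stronger members. Among the 2639 weak promoter peaks with the higher signal the difference was -0.633 percentage points (adjusted p = 0.569, Fisher's exact test), and among the 2136 present in both replicate lists it was -1.45 percentage points (adjusted p = 0.102, Fisher's exact test). The BEAF-32 site core (CGATA), which lies within the DRE, was found in 32.2% of weak and 37.8% of IDR promoter windows and lost its call in the same subsets, with adjusted p of 0.519 and 0.0842 by Fisher's exact test. Motif 1 was found in 3.96% of weak and 4.34% of IDR promoter windows (odds ratio 0.909, 95% interval 0.713 to 1.16, adjusted p = 0.549, Fisher's exact test).

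Where a DRE was present, it lay closer to the summit in weak promoter peaks. A match centred within 50 bp of the summit was found in 63.1% of the 249 weak promoter windows with a DRE and 44.4% of the 178 IDR promoter windows with one (odds ratio 2.14, 95% interval 1.45 to 3.16, adjusted p = 0.000747 over 22 motifs, Fisher's exact test). The median distance was 38 bp in weak and 54.5 bp in IDR promoter peaks. For Motif 1 the shares were 55.0% of 209 weak and 36% of 100 IDR promoter windows (adjusted p = 0.00629, Fisher's exact test). In all 5 motifs were more often central in weak promoter peaks (22.7%), the others being CGATA (61.1% of weak and 54.4% of IDR promoter windows), CAGCTG (53.5% and 41.5%) and GAGAG (55.3% and 43.6%). The 4 that were less often central (18.2%) were all AT-rich, among them TATAAA with 56.9% of weak and 67.5% of IDR promoter windows. TAATTA (52.5% and 59.8%) and CTCTTT (51.4% and 54.0%) had no call. Their weak shares stood near those of Motif 1, CAGCTG and GAGAG. The calls compare the 2 groups and do not show that a motif was central in weak promoter peaks by itself. IDR promoter summits lay farther upstream of the TSS, and the part of this in the distances was not tested. With 100 bp windows the DRE was no longer less frequent in weak promoter peaks (-0.256 percentage points, adjusted p = 0.675, Fisher's exact test), and with 400 bp windows Motif 1 was less frequent by -4.19 percentage points (adjusted p = 2.94e-09, Fisher's exact test). Without divergent promoters the call for a central DRE was lost (13.6 percentage points, adjusted p = 0.107, Fisher's exact test).

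Over the range of signal, DRE and Motif 1 were most frequent on both sides of the threshold. In the weak promoter peaks, split into 5 equal parts of increasing signal, the DRE share was 1.99%, 1.99%, 4.73%, 5.78% and 9.09%. In the IDR promoter peaks, split in the same way, it was 10.8%, 10.8%, 6.94%, 5.86% and 4.11%. Motif 1 was found in 1.80% of the weakest and 6.63% of the strongest part of the weak promoter peaks, and in 9.11% of the weakest and 0.649% of the strongest part of the IDR promoter peaks. TATAAA did not share this shape: its share was 26.9% in the strongest part of the weak promoter peaks and 46.3% in the strongest part of the IDR promoter peaks. CA repeats were most frequent in the weakest part of the weak promoter peaks, at 8.15%, and least frequent in the strongest part of the IDR promoter peaks, at 1.30%. The G and C content did not share the shape of DRE and Motif 1 either. It was lower in the strongest than in the weakest part of each group, at 42.7% in the weakest and 40.1% in the strongest part of the weak promoter peaks, and at 38.6% in the weakest and 32.3% in the strongest part of the IDR promoter peaks. The divergent share was 7.58% in the weakest and 21.3% in the strongest part of the weak promoter peaks. The parts were cut by the signal that the rule used, and the shares are a description.

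**Figure D3:**
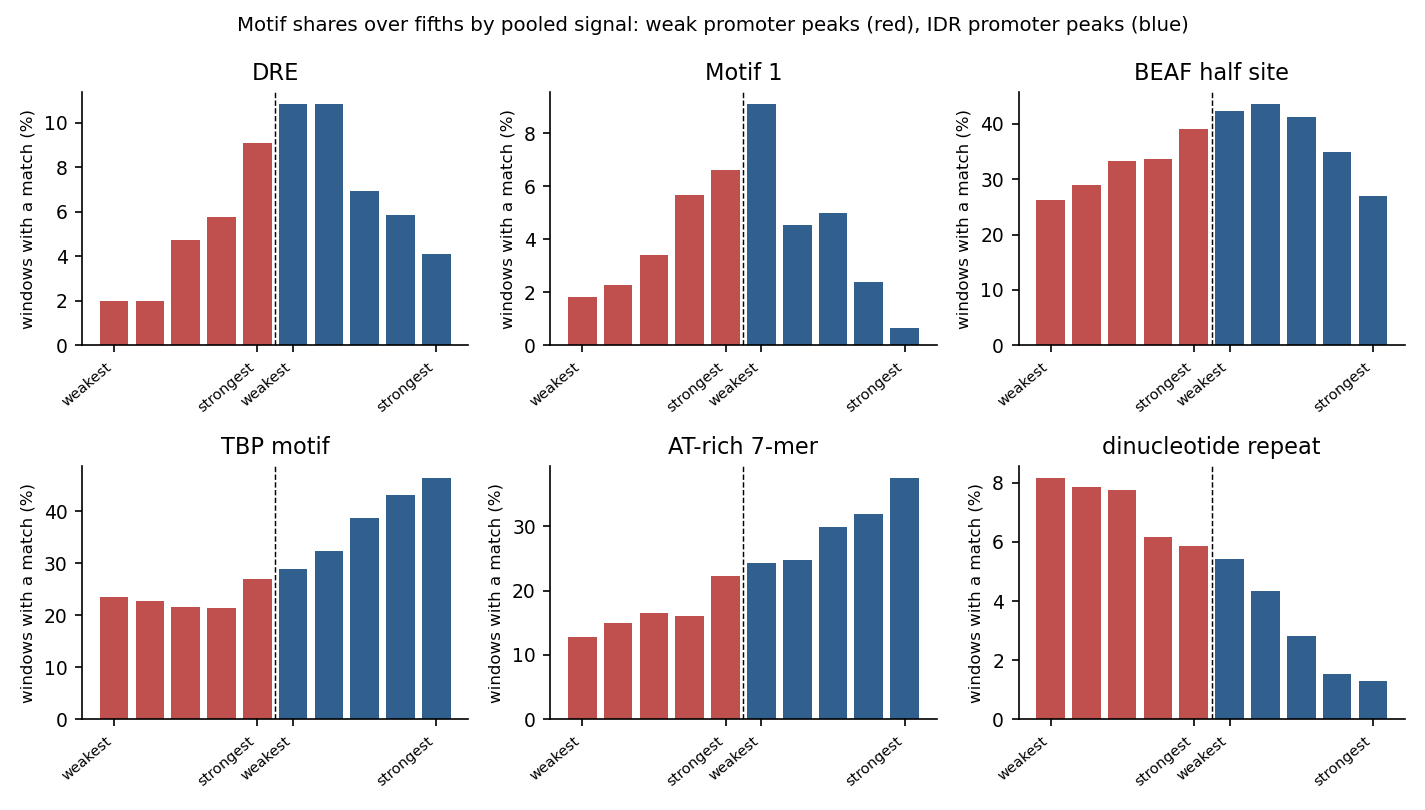
Percentage of 200 bp summit windows with a match to each of 6 motifs, in 5 parts of equal size of the weak promoter peaks (red, left of the dashed line) and of the IDR promoter peaks (blue), each running from the weakest to the strongest pooled signal. The DRE share was 9.09% and 10.8% in the parts on either side of the line and 1.99% and 4.11% at the far ends, whereas the AT-rich 7-mer and the TBP motif (the TATA box) were most frequent in the strongest IDR promoter peaks. The dinucleotide repeat is the run of CA.

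Over all 8192 7-mers, with reverse complements joined, 1078 were more frequent in weak than in IDR promoter windows (13.2%) and 731 less frequent (8.92%) by Fisher's exact test with Benjamini-Hochberg adjustment. Of the 1078, 943 held 4 or more G or C, as did 4096 of all 7-mers, and of the 731, 667 held 2 or fewer, as did 1856 of all 7-mers. The lowest adjusted p among the more frequent belonged to CAGCAGC, in 7.03% of weak and 2.56% of IDR promoter windows (adjusted p = 2.49e-14, Fisher's exact test), followed by CACACAC with 10.5% of weak and 5.25% of IDR promoter windows, CACGCAC with 6.02% and 2.17%, and CGCTCGC with 5.23% and 1.69%. The 7-mer with the lowest adjusted p on the other side was AAAATAT, in 16.5% of weak and 29.7% of IDR promoter windows (adjusted p = 3.15e-33, Fisher's exact test).

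Against their own flanks, weak promoter peaks held more of the promoter motifs and of several AT-rich ones. Of the 22 fixed motifs 13 were more frequent within 100 bp of the summit than in windows of the same length 1000 bp upstream (59.1%), and 0 were less frequent (0%) by exact McNemar tests, with 0 less frequent also at an unadjusted p under 0.05. The DRE was found in 4.72% of summit windows and 1.06% of upstream windows (adjusted p = 2.51e-29, exact McNemar test), with 247 peaks holding it only at the summit and 54 only upstream. Motif 1 was found in 3.96% of summit and 0.720% of upstream windows (adjusted p = 2.51e-29, exact McNemar test), CGATA in 32.2% and 22.9%, TCAGT in 35.7% and 28.8%, GAGAG in 27.2% and 22.6%, and CA repeats in 7.16% and 4.38%. Among AT-rich sequences, AAAATAT was found in 16.5% of summit and 13.8% of upstream windows (adjusted p = 0.000347, exact McNemar test). Also called were the run of A (AAAAAAA) with 19.5% and 16.6%, TTTAAAA with 13.7% and 12.1%, and TAAAATA with 12.4% and 10.5%. TATAAA, at 23.2% of summit and 22.8% of upstream windows, missed the threshold (0.398 percentage points, adjusted p = 0.722, exact McNemar test). It passed with the replicate 3 list (2.02 percentage points, adjusted p = 0.0237), with 400 bp windows (2.37, adjusted p = 0.0209) and against downstream flanks (2.67, adjusted p = 0.00208), each by exact McNemar tests.

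Summit windows lie at promoters and most upstream windows do not, so the shares were also set beside those of promoters at large. In 200 bp windows centred on each of 19252 protein-coding TSSs the DRE was found in 6.44%, Motif 1 in 5.68%, TCAGT in 43.3% and CACACACA in 3.98%. The weak promoter peaks thus lay above all promoters in CA repeats, at 7.16%, and below them in DRE, Motif 1 and TCAGT, in windows centred on the summit and not the TSS. In other weak peaks the DRE was found in 0.421% and Motif 1 in 0.368% of windows. Of all 7-mers, 583 were more frequent at the summit than upstream (7.12%) and 709 less frequent (8.65%). The lowest adjusted p belonged to ATCGATA, in 9.60% of summit and 3.20% of upstream windows (adjusted p = 9.99e-39, exact McNemar test), CTATCGA, which overlaps it, and GTCACAC, a part of Motif 1. CGCTCGC followed with 5.23% of summit and 2.08% of upstream windows. Among the less frequent 7-mers the lowest adjusted p belonged to TCCTCCA, in 1.31% of summit and 3.83% of upstream windows (adjusted p = 5.69e-14, exact McNemar test).

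Of 13945 protein-coding genes, 3977 had a weak promoter peak within 500 bp of a TSS, and 583 of these also had an IDR promoter peak. Only weak promoter peaks were found at 3394 genes (24.3%), an IDR promoter peak at 2836 (20.3%) and no pooled peak at 7692 (55.2%). Of the weak promoter peaks 733 lay within 500 bp of TSSs of 2 genes and 39 of 3 or more, so that neighbours can share a peak. Genes with only weak promoter peaks had more than 1 annotated TSS in 37.0%, against 44.6% of genes with an IDR promoter peak and 15.2% of genes with none. The part of the number of TSSs in these classes was not tested.

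Promoters with only weak peaks held Motif 1, the DRE, GA repeats and CA repeats more often than promoters with no pooled peak, and the TATA box less often. Motifs were counted from 250 bp before to 50 bp after 1 TSS per gene, the TSS of the strongest peak or, at genes with none, the most upstream TSS. With the most upstream TSS of every gene 9 motifs were more frequent and 2 less frequent, and the calls for the motifs named here held. Of 22 motifs 8 were more frequent at promoters with only weak peaks than at promoters with none (36.4%), and 4 less frequent (18.2%). Motif 1 was found at 10.7% of promoters with only weak peaks, 11.1% of those with an IDR peak and 4.93% of those with none (for weak only against none, the odds ratio was 2.31 with a 95% interval of 1.99 to 2.68 and adjusted p = 4.57e-26, Fisher's exact test). The DRE was found at 11.0% of promoters with only weak peaks, 14.3% of those with an IDR peak and 6.40% of those with none (odds ratio 1.81, 95% interval 1.57 to 2.09, adjusted p = 2.69e-15, Fisher's exact test). GAGAG was found at 37.7% of promoters with only weak peaks, 32.0% of those with an IDR peak and 27.0% of those with none (adjusted p = 1.00e-27, Fisher's exact test), and CA repeats at 6.36%, 4.41% and 3.33%. TATAAA was found at 38.8% of promoters with only weak peaks, 47.7% of those with an IDR peak and 47.6% of those with none (adjusted p = 6.74e-17, Fisher's exact test). G and C made up 40.9% ± 8.16 of the windows with only weak peaks and 38.9% ± 7.77 of those with none (SD, n = 3394 and 7692), and the part of this difference in the shares was not tested.

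**Figure D4:**
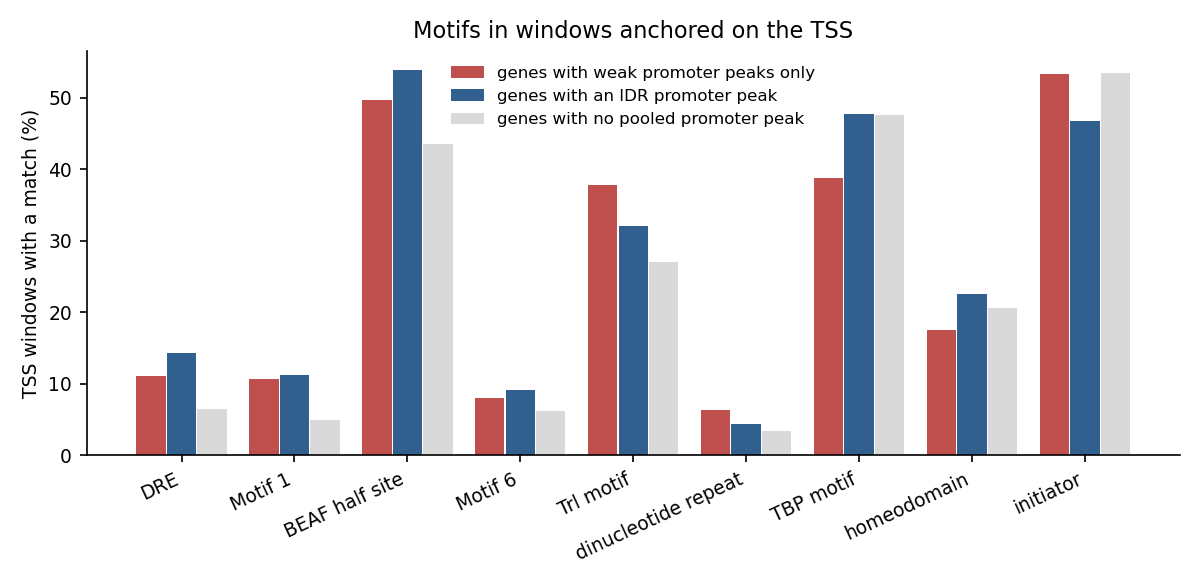
Percentage of genes whose TSS window, from 250 bp before to 50 bp after the TSS, held a match to each of 9 motifs, for genes with only weak promoter peaks (red), with an IDR promoter peak (blue) and with no pooled promoter peak (grey). Motif 1 was found at 10.7%, 11.1% and 4.93%, and the Trl motif (GA repeat) was most frequent at promoters with only weak peaks, at 37.7%.

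The 33 gene lists, which were chosen with earlier results of these data known, are described by counts, beside the 24.3% of all protein-coding genes with only weak promoter peaks and the 20.3% with an IDR promoter peak. No list was tested. Signals, medians and presence in the replicate lists are those of the strongest weak promoter peak of each gene, and a gene can hold several. Among signalling pathways, 9 of 17 genes of the BMP and activin pathway had only weak promoter peaks and 3 had an IDR promoter peak. They included the ligand genes dpp and gbb, the type I receptors tkv and sax, the type II receptors put and wit, the Smads Smox and Med, and sog, an extracellular antagonist. The peak at tkv had a pooled signal of 138.1, with 68.2 in the replicate 2 list and 75.1 in the replicate 3 list, and that at Smox had 130.4, with 46.5 and 69.6. The peak at dpp, 14 bp downstream of the TSS, had 86.1 and a summit in the replicate 3 list alone, at rank 6184. Of the 9 genes, 6 had their strongest weak peak in both lists. The strongest weak peaks at sax, Med, gbb and put lay within 500 bp of another gene's TSS as well.

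The Wnt pathway had 8 of 21 genes with only weak promoter peaks and 6 with an IDR promoter peak. Both receptors fz2 and fz were among them, with pooled signals of 142.7 and 133.8, and so were dsh, a cytoplasmic transducer, with 116.6, pan, the TCF factor, with 105.3, the β-catenin gene arm with 72.0 and the ligand gene wg with 78.2. The Notch pathway had 8 of 27 with only weak promoter peaks, among them N itself, with a signal of 138.4 and ranks of 3784 in replicate 2 and 18208 in replicate 3, and pen-2, a γ-secretase subunit, with 142.7 and no summit in replicate 2. Receptor tyrosine kinase and MAPK signalling had 9 of 26, including the ligand gene vn (140.1), the protease gene rho (131.3), the phosphatase gene csw (117.9) and the ETS factor gene pnt (117.3). The Hedgehog pathway had 3 of 11, the transcription factor gene ci (137.1), the co-receptor gene boi (118.7) and the receptor gene ptc (82.7), which had no summit in either replicate list.

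Polycomb group genes, which encode repressors of chromatin, had only weak promoter peaks in 9 of 19 and an IDR promoter peak in 3. The strongest were jing (138.7), Su(z)2 (136.4), Psc (134.8) and Asx (128.8), and 7 of the 9 genes had their strongest weak peak in both replicate lists. Pc had a signal of 92.6 with a summit in the replicate 3 list alone. Trithorax group genes, which act against them, had only weak promoter peaks in 1 of 15, fs(1)h (130.2), and an IDR promoter peak in 8. Architectural and insulator proteins had only weak promoter peaks in 2 of 16, su(Hw) (72.8) and Clamp (48.8), and an IDR promoter peak in 10.

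Among housekeeping lists, most cytoplasmic ribosomal protein genes had an IDR promoter peak, 61 of 87, and 13 had only weak promoter peaks. Over the strongest weak peak of each of those 13 genes the median signal was 126.7, with a range of 41.9 at RpS5b to 142.7. The median of 66.3 over all weak promoter peaks also counts the weaker peaks of a gene, so the 2 medians are not alike. The highest signals were at RpS15 (142.7), RpL40 (135.6), RpS9 (128.6) and RpS14b (128.5). Oxidative phosphorylation had 22 of 84 genes with only weak promoter peaks, led by ATPsynO (140.1), UQCR-C1 (134.1), ATPsynC (132.5) and ATPsynB (128.0), all subunits of the ATP synthase or of complex III. Mitochondrial ribosomal proteins had 19 of 75, led by mRpS17 (133.4), and cell cycle and replication genes had 14 of 39, led by CycA (140.2), Cdk4 (137.1), aurB (136.4) and CycG (133.2). Rab GTPases, which direct vesicle traffic, had 12 of 33, led by Rab2 (129.5). Proteasome subunits had 7 of 48, led by Rpn7 (143.4), glycolysis 2 of 12, Ald1 (119.2) and Pglym78 (114.6), and autophagy 4 of 20, led by Atg3 (125.3). Translation factors had 10 of 53, aminoacyl-tRNA synthetases 6 of 33, vacuolar ATPase subunits 7 of 29, RNA polymerase II and TFIID 6 of 28, Mediator 5 of 25, and heat shock proteins and chaperones 9 of 34, led by Hsp68 (133.3).

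Counts in the lists of genes with restricted expression were small and stood on both sides of the 24.3% of all protein-coding genes, with segmentation and Hox genes near it. Muscle structural genes had only weak promoter peaks in 8 of 20 and an IDR promoter peak in 4. The median signal was 51.9 over the strongest weak peak of each of the 8 genes, led by Mlp60A (74.6), up (65.6), wupA (56.7) and Mlc2 (54.4). Of these 8 peaks 2 were in both replicate lists. Neural genes had 9 of 25, led by the Sox factor gene D (104.9), insc (101.02), cpo (93.2) and nerfin-1 (70.0). Segmentation genes had 6 of 24, with 1 IDR promoter peak in the list, led by cad (112.4), en (91.4), inv (82.1) and wg (78.2), and the Hox genes had 2 of 8, abd-A (79.2) and Ubx (45.2), with 0 IDR promoter peaks. Mesoderm and heart regulators had 2 of 19, twi (65.6) and zfh1 (51.6), and germline genes 6 of 19, with 4 IDR promoter peaks in the list. The median signal was 100.1 over the strongest weak peak of each of these 6 germline genes, led by exu (142.7), stau (129.2), vas (125.8) and mael (74.3).

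Cuticle protein genes had only weak promoter peaks in 22 of 111 and an IDR promoter peak in 0. The strongest, at Cpr65Au (112.7) and Lcp65Ag3 (104.5), belong to neighbouring genes of the same cluster on arm 3L, and 9 of the 22 were in both replicate lists. Chemoreceptors had 8 of 179 with only weak promoter peaks and 0 with an IDR promoter peak, led by Gr97a (133.7) and Gr63a (129.3), both of which share the peak with another gene. Odorant-binding proteins had 5 of 51, led by Obp83cd (94.0), and chorion and yolk genes 1 of 18, Vm32E (32.9). None of the 111 replication-dependent histone genes had a weak promoter peak, and these genes stand in near-identical copies, whose mapping was not tested.

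**Figure D5:**
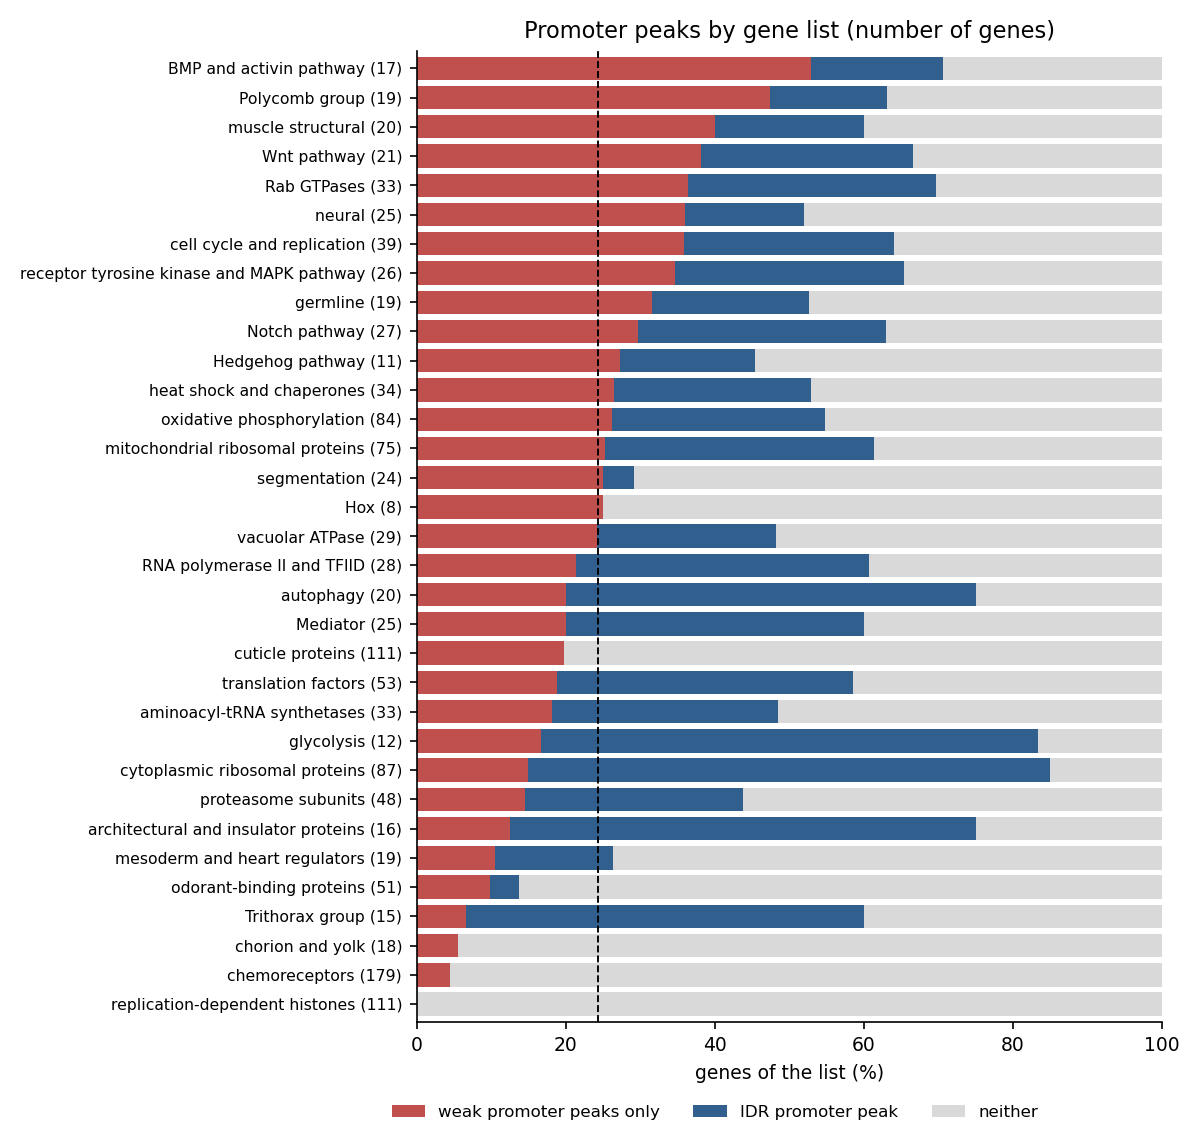
Percentage of the genes of each of 33 lists with only weak promoter peaks (red), with an IDR promoter peak (blue) and with neither (grey), with the number of genes in brackets. The dashed line marks the 24.3% of all protein-coding genes with only weak promoter peaks. BMP and activin pathway genes stood at 9 of 17 and cytoplasmic ribosomal proteins at 13 of 87, of which 61 had an IDR promoter peak.

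Several genes held many weak promoter peaks, some of which overlapped each other. The highest number was 10, at mtd, which has 11 annotated TSSs, followed by 9 at SNF4Agamma, 9 at Svil, which encodes an actin-binding protein of the villin family, and 8 at sgg, the fly GSK-3 kinase. These 4 genes had an IDR promoter peak as well. Tlk, a kinase gene of chromatin assembly, had 7 weak promoter peaks and no IDR promoter peak, the strongest with a pooled signal of 141.7 and the weakest with 36.6. Most genes with only weak promoter peaks had a single one, 2189 of 3394, and 917 had 2. CG10147 itself had 0 weak promoter peaks, and 0 weak pooled summits lay within 5000 bp of the gene.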

How the data were processed

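ChIP-seq of CG10147-GFP was analysed in 2 libraries, biological replicates 2 and 3 of 1 group. The authors deposited peak lists on dm6 for each replicate and for both pooled, each called with a control, and an IDR-thresholded list, per the deposited file lists. Peak caller, aligner and filters are not given in the sources used here. Deposited lists give a signal value, a −log10 q-value and a summit offset in bp, another kind of value, for each peak. Depth is unknown, so no single signal has an interval.

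Genes came from Ensembl's copy of FlyBase annotation 6.54 and sequence from RefSeq's Release 6 genome, which has the same coordinates as dm6. Sequences on arm 2R are not printed. Promoters were compared with two-sided Fisher's exact tests, members and their flanks with exact McNemar tests, each adjusted by Benjamini-Hochberg with a threshold of 0.05, in Python 3.11.15 with numpy 2.4.6, pandas 2.3.3 and scipy 1.17.1 (figures with matplotlib 3.10.9). Odds ratios carry Woolf 95% intervals. Motif matches used 200 bp windows. The search for nearest positions, the 7-mer matching and the Fisher and McNemar steps were tested on simulated data.

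The members, motifs, gene lists and rule for named genes were chosen with earlier results of these data known. The rule named the 12 strongest members, the 5 weakest IDR promoter peaks, the 5 members ranked highest in each replicate list, the 5 genes with most member summits, up to 4 genes per list and the 10 motifs or 7-mers with the lowest adjusted p. For the BMP and activin, Wnt and Polycomb lists further members are named, chosen after their values were seen, as were the added sequences for DRE and Motif 1. Sequences came from the strongest members that held a motif. After the first counts, 3 regulators of Rab proteins and 1 transporter, caught by symbol only, were taken out of the Rab and chorion lists. Alternatives changed the distances, windows, lists and members kept.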

Additional observations from a re-analysis of the deposited data

How the results depend on the processing

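Under the alternatives 404 values of single motifs or annotation classes kept their direction and their side of the threshold. Of the others 16 turned in direction, 32 were no longer past the threshold and 16 were newly past it. Among summary values 137 were classed as unchanged and 39 counts or shares in both lists as moved. In addition 1 turned in direction, 1 was no longer past the threshold and 1 was newly past it. The 137 mix tested differences with counts and shares in both lists, which have no direction or threshold. For these, unchanged means only a limited change: 7564 weak promoter peaks with a TSS window of 1000 bp, beside 5279, were classed as unchanged. No paired analysis was possible because there is only 1 group. Every p is over peaks or genes, which share 2 libraries, and the depth behind a peak is unknown. The restriction to non-divergent promoters was chosen after seeing the data. Where a value moved, the cause was not tested, but settings that keep fewer peaks or shorter windows leave fewer matches.

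The number of weak promoter peaks was 3350 with a TSS window of 200 bp, 2136 with a summit in both replicate lists and 2639 with the higher signal, and genes with only weak peaks then numbered 1832 and 2224 in the last 2 settings. The share in both lists was 45.7% and 37.8% with TSS windows of 200 and 1000 bp, 63.0% with the higher signal, and 23.9% and 57.1% with matches within 50 and 200 bp. The chromosome 4 difference was -0.0637 percentage points with a TSS window of 200 bp, and between 0.120 and 0.591 with 1 replicate list in place of the pooled one. That setting kept the IDR list of both libraries, so it did not leave a replicate out. The X difference was 1.77 at non-divergent promoters.

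Of the 22 motifs, 1 was less frequent than in flanks with TSS windows of 200 and 1000 bp and with either replicate list in place of the pooled one. The same count was found outside soft-masked repeats, with 400 bp windows, with downstream flanks and at non-divergent promoters. With 1 replicate list in place of the pooled one, between 2 and 5 motifs and between 601 and 1572 7-mers were more frequent than in IDR promoter peaks. At most upstream TSSs, 2 motifs were less frequent at promoters with only weak peaks.

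7-mers more frequent than in IDR promoter peaks numbered 651 (TSS window 200 bp), 603 (both lists), 526 (higher signal), 601 (outside repeats), 634 (100 bp windows) and 487 (non-divergent). Those less frequent numbered 478 (both lists) and 448 (higher signal). 7-mers more frequent than in flanks numbered 338 (TSS window 1000 bp), 273 (both lists), 243 (100 bp windows) and 936 (400 bp windows). Those less frequent numbered 422, 312, 216 and 1319 in the same settings, 1190 with downstream flanks and 425 at non-divergent promoters.

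The differences below turned in direction and are in percentage points. All but TTTAAAA against flanks had missed the threshold. Motif 1 against IDR promoter peaks came to 0.370 (TSS window 200 bp), 1.00 (both lists), 1.31 (higher signal), 0.745 (1 peak per gene) and 0.577 (100 bp windows). The intron share came to -0.101 (both lists), -1.14 (higher signal), -2.72 (1 peak per gene, past the threshold) and -1.56 (non-divergent). It was positive and past the threshold with an IDR distance of 250 bp (2.33), a TSS window of 1000 bp (4.77), the replicate 3 list (3.14) and outside repeats (3.30). The share in other exons came to 0.232 (TSS window 1000 bp) and 0.00106 (both lists). Against flanks, TAATTA came to between -1.71 and 0.709 with 1 replicate list in place of the pooled one and to 0.625 with downstream flanks. TATAAA came to -0.836 outside repeats and -0.522 at non-divergent promoters, and TTTAAAA to -0.0435 at non-divergent promoters.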
